A study of Rattus norvegicus with 21 samples.

Results

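The step from 489.2 to 978.5 mg/kg of 2-ethylhexyl diphenyl phosphate, an ester of phosphoric acid added to plastics to soften them and slow burning, was described in rat liver across 14218 genes. The samples are the 3 arrays whose title gives 978.5 mg/kg and the 3 arrays whose title gives 489.2 mg/kg, 6 of the 21 arrays of the series. The compound is spelled EHDP in the series title and EDHP in the sample labels. Both groups were male Harlan Sprague-Dawley rats given the compound by gavage in corn oil once a day, for 4 doses, with the left liver lobe taken on the day after the last dose. The groups below them were dosed in the same way with 244.6, 122.5 or 61.2 mg/kg (3 arrays each) or with corn oil alone (6 vehicle arrays, where the protocol speaks of 5 vehicle rats). The values are log2 signals of Affymetrix expression arrays, so a difference of 1 is 2-fold, and each array took 100 ng of liver RNA.

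The liver answers many lipophilic chemicals through the nuclear receptors CAR and PXR, which switch on cytochromes P450, sulfotransferases, glucuronosyltransferases and efflux pumps that oxidise, conjugate and export them. The factor NRF2 adds enzymes of glutathione supply when electrophiles accumulate. The Sult2a enzymes sulfonate steroids and bile acids and, in the rat, are more abundant in female than in male liver.

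The hepatocyte genes Alb and Ttr, which encode albumin and transthyretin, read between 15.30 and 15.36 and between 14.77 and 14.91 over all 21 arrays, among the brightest genes on each. Array medians lay between 6.33 and 6.41, and arrays of the 2 groups correlated with each other at 0.987 to 0.995 over genes. The third array at 489.2 mg/kg stood apart from the other arrays of these 2 groups in some genes of inflammation. Lcn2, an iron-binding acute phase protein of liver and neutrophils, read 6.66, 7.92 and 6.87 at 978.5 mg/kg, against 8.79, 6.73 and 12.70 at 489.2 mg/kg, where 12.70 is that array. S100a8, a calcium-binding protein of neutrophils, read 4.81, 4.41 and 4.68 at 978.5 mg/kg, against 4.97, 4.59 and 8.02 at 489.2 mg/kg. Vehicle arrays were spread in these genes too. Among genes on an array, Lcn2 stood between the 26th and 82.6th percentile in vehicle, and at most at the 97.9th at 489.2 mg/kg. S100a8 stood between the 8.32nd and 46.9th percentile in vehicle, and at most at the 58th at 489.2 mg/kg. For most gene lists below, values are given with and without the third array at 489.2 mg/kg.

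At 978.5 mg/kg, 15 of 14218 genes (0.106%) passed the test against 489.2 mg/kg (limma, Benjamini-Hochberg adjusted p under 0.05), and all 15 were higher. They encode steroid and drug handling proteins (Sult2a2, Abcb1a, Ugt2b10), a sterol sensor (Insig2), ubiquitin ligase parts (Herc3, Cul4a), other enzymes (Car2, Acyp2, Fn3krp), and proteins of signalling, microtubules or cilia (Gadd45b, Bcar3, Rmdn2, Arl6, Zwint), with Ttc39a beside them. Their log2 differences ran from 0.48 to 3.29 with a median of 0.79, and in each the 3 arrays at 978.5 mg/kg lay above the 3 at 489.2 mg/kg. Lower calls numbered 0, with 920 genes (6.47%) lower at an unadjusted p under 0.05 and 1020 (7.17%) higher. The lowest adjusted p of a gene that was lower was 0.0521, for Cyp2c11. Over all genes the median difference was -0.02, with 6239 differences positive and 7979 negative. At least 1.5-fold differences were seen in 176 genes upward and 64 downward, called or not.

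**Figure D1:**
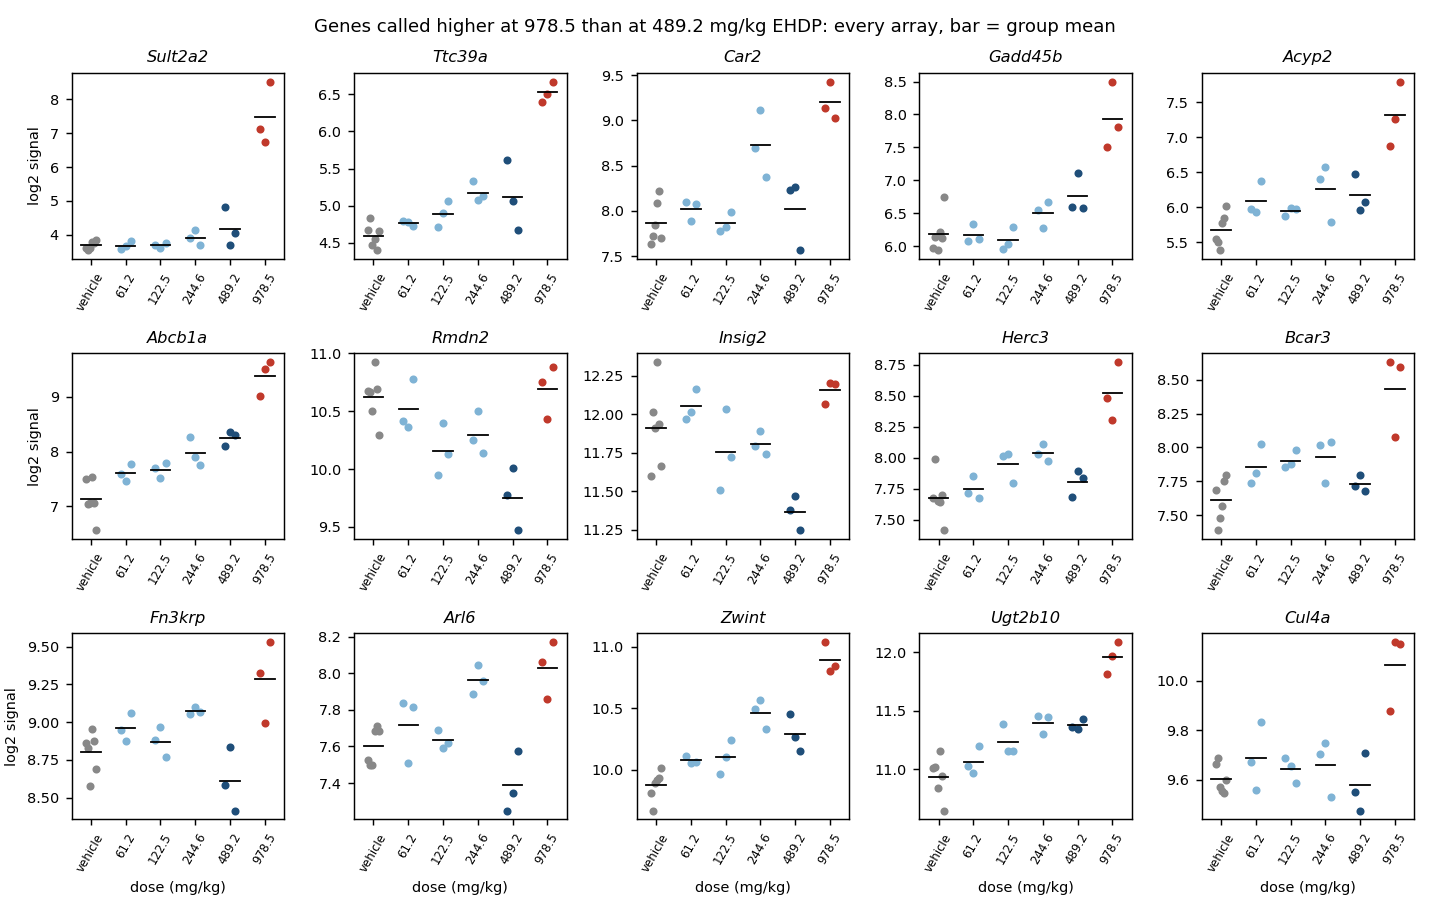
Log2 signal (vertical axis) of the 15 genes called higher at 978.5 than at 489.2 mg/kg, by dose from vehicle to 978.5 mg/kg, with 1 point per array and a bar at each group mean. Sult2a2 sat near 4 up to 489.2 mg/kg and between 6.74 and 8.52 at 978.5 mg/kg, while Insig2 and Rmdn2 dipped at 489.2 mg/kg and lay near the vehicle arrays at 978.5 mg/kg.

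The number called depended on single arrays. Without the third array at 978.5 mg/kg 2 genes were called, Sult2a2 and Ttc39a, and without the third at 489.2 mg/kg 3 were, these 2 and Arl6. Without the second array at 978.5 mg/kg 126 genes were called (107 higher, 19 lower), without the second at 489.2 mg/kg 44, and without the first at 489.2 mg/kg 8. Sult2a2 and Ttc39a were called in each of the 6 fits that left out 1 array. A further quantile normalisation gave 18 calls, of which 88.9% were higher, and a fit of the 6 arrays alone gave 0, with 1471 genes at an unadjusted p under 0.05.

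The largest difference was that of Sult2a2, a steroid and bile acid sulfotransferase. It read 7.13, 6.74 and 8.52 at 978.5 mg/kg, against 4.81, 3.68 and 4.05 at 489.2 mg/kg, with 3.54 to 3.84 in the vehicle arrays. The 2 dose groups were far apart, and the 489.2 mg/kg arrays were split, with replicates 1 and 3 above all vehicle arrays and replicate 2 among them. The difference was 3.29 ± 0.30 (SE, n = 3 each, 9.75-fold, limma adjusted p = 1.68e-05). At 489.2 mg/kg its signal stood between the 1.95th and 10.4th percentile of genes on an array, and folds of such dim probe sets can be understated by an array.

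Its paralog Sult2a6, far brighter, read 12.89, 12.71 and 13.07 at 978.5 mg/kg, against 11.95, 11.29 and 12.28 at 489.2 mg/kg and 10.16 to 11.36 in vehicle. The dose groups did not overlap, but the difference of 1.05 ± 0.27 did not pass (SE, n = 3 each, limma adjusted p = 0.129). Sult2a1 stayed near the lowest signals, at 3.77, 4.08 and 4.14 at 978.5 mg/kg, against 3.85, 3.90 and 3.85 at 489.2 mg/kg. These genes are close copies, so a probe set of 1 may also bind transcripts of another. Their promoters are shown because the first rose most and all share an element. The sequences are RefSeq's on GRCr8, from 250 bases before to 50 after the gene's start, all on the minus strand, at chr1:85104483-85104782 for Sult2a2, chr1:84097759-84098058 for Sult2a6 and chr1:84638898-84639197 for Sult2a1.
Sult2a2: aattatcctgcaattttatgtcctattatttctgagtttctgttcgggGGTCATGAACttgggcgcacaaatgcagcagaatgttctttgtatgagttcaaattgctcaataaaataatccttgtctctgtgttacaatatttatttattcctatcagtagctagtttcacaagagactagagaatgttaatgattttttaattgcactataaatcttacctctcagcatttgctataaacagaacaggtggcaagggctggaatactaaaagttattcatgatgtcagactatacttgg
Sult2a6: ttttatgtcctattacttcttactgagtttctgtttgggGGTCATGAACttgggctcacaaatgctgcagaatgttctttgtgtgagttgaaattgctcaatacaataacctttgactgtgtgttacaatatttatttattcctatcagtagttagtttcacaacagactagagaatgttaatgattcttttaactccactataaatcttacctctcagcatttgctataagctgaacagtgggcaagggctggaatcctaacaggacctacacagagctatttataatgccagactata
Sult2a1: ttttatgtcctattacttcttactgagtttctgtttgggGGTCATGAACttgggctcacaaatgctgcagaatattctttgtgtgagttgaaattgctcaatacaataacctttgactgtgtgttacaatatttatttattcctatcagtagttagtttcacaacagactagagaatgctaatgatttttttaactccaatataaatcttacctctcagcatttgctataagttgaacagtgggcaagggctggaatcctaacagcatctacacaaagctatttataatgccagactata
Capitals mark GGTCA followed directly by TGAAC, part of an inverted repeat known in rodent Sult2a promoters as a site for nuclear receptors, among them PXR, CAR and the bile acid receptor FXR. Its first base lies at -202 from the start of Sult2a2 and at -211 from those of Sult2a6 and Sult2a1. Searched on both strands, it occurred in 19 of 33469 promoters in the table (0.0568%). The promoters of Sult2a6 and Sult2a1 were identical at 292 of 300 bases, and that of Sult2a2 matched Sult2a6 at 192 of 291 aligned bases.

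Among the 13 called genes with a promoter in the table, this element was found in Sult2a2 alone. The antioxidant response element TGACNNNGC was found in 1 of them, Ttc39a, and in 12.1% of all promoters. The E-box CACGTG was found in 2, Bcar3 and Gadd45b, and in 6.42% of all. The dioxin response element core GCGTG was found in 4 and in 29.7% of all, and the D-box TTATGNAA in Insig2 and in 3.66% of all. The amino acid response element TGATGNAA was found in 0 of the 13 and in 3.98% of all.

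Abcb1a encodes P-glycoprotein, a pump that exports drugs into bile. It read 9.01, 9.50 and 9.64 at 978.5 mg/kg, against 8.10, 8.36 and 8.30 at 489.2 mg/kg, and the 489.2 mg/kg arrays in turn lay above all vehicle arrays (6.56 to 7.54). The difference was 1.13 ± 0.20 (SE, n = 3 each, 2.19-fold, limma adjusted p = 0.0392), and its second probe set gave 1.20. Ugt2b10, a glucuronosyltransferase that conjugates small molecules with glucuronic acid, read 11.81, 11.97 and 12.09 at 978.5 mg/kg, against 11.36, 11.35 and 11.43 at 489.2 mg/kg and 10.65 to 11.16 in vehicle, a difference of 0.58 ± 0.11 (limma adjusted p = 0.0442). Gadd45b, a stress-inducible signalling protein known in mouse liver as an early target of CAR, read 7.50, 8.50 and 7.81 at 978.5 mg/kg, against 6.60, 7.11 and 6.58 at 489.2 mg/kg, a difference of 1.18 ± 0.22 (limma adjusted p = 0.0442). In all 3 genes the dose groups were separate.

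Of the 27 listed CAR and PXR targets, 2 rose (Abcb1a and Gadd45b), where 0.106% of all genes did, and 0 fell. In 22 the difference was positive, with a median of 0.26, and in 6 all 978.5 mg/kg arrays lay above all 489.2 mg/kg arrays, a share to be read against 7.62% of all genes. Without the third array at 489.2 mg/kg 18 were positive, the median was 0.12 and 0 were called, and without the second at 978.5 mg/kg the median was 0.15. Alas1, the first enzyme of haem synthesis, read 12.34, 12.67 and 12.35 at 978.5 mg/kg, against 11.85, 11.88 and 11.87 at 489.2 mg/kg, and did not pass (0.59 ± 0.22, limma adjusted p = 0.26). Cyp3a18 and Cyp3a23-3a1, drug-oxidising cytochromes P450, differed by 0.49 ± 0.14 and 0.38 ± 0.13 and did not pass either (limma adjusted p = 0.163 and 0.227). Akr1b7, an aldo-keto reductase, differed by 2.09 ± 0.82, but its arrays were spread from 7.42 to 10.84 at 978.5 mg/kg and from 5.15 to 8.47 at 489.2 mg/kg (limma adjusted p = 0.273).

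Among 35 genes of conjugation and export 3 rose (Sult2a2, Abcb1a and Ugt2b10), where 0.106% of all genes did, 0 fell, and 11 had no overlap upward, where 7.62% of all genes had none. The median difference was 0.08, and 0.079 to 0.22 with 1 array left out. Without the third array at 489.2 mg/kg 1 was called and the median was 0.12. The glutathione transferase Gsta3 read 11.11, 10.85 and 10.86 at 978.5 mg/kg, against 10.77, 9.59 and 9.86 at 489.2 mg/kg, and did not pass (0.87 ± 0.27, limma adjusted p = 0.182). Of 32 NRF2 targets 0 were called, 24 were positive and 8 did not overlap upward, against 7.62% of all genes. At an unadjusted p under 0.05, 9 were higher, against 7.17% of all genes, and 0 lower. The median was 0.17, 0.16 without the third array at 489.2 mg/kg and 0.053 without the first at 978.5 mg/kg. Named members that did not pass were Gclm, a subunit of the rate-limiting enzyme of glutathione synthesis (0.55 ± 0.16, limma adjusted p = 0.16), Gsr, which regenerates glutathione (0.53 ± 0.18, limma adjusted p = 0.203), and malic enzyme Me1, which supplies NADPH (0.69 ± 0.22, limma adjusted p = 0.193).

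Several genes that stood far above vehicle at both doses gave no call between them. Ces2c, a carboxylesterase, read 12.72, 13.32 and 12.30 at 978.5 mg/kg, against 12.91, 11.62 and 12.38 at 489.2 mg/kg, with 8.52 to 9.21 in vehicle (difference 0.47 ± 0.30, limma adjusted p = 0.502). Abcc3, a basolateral conjugate pump, read 10.23, 11.12 and 9.94 at 978.5 mg/kg, against 10.60, 10.33 and 9.58 at 489.2 mg/kg, with 6.65 to 7.24 in vehicle (0.26 ± 0.34, limma adjusted p = 0.78). Cyp1a1, the classic target of the aryl hydrocarbon receptor, read 7.88, 8.26 and 8.25 at 978.5 mg/kg, against 8.61, 6.40 and 7.99 at 489.2 mg/kg, with 5.58 to 6.12 in vehicle (0.46 ± 0.36, limma adjusted p = 0.596). The dose groups of each overlapped, and the standard errors leave room for moderate differences either way.

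Insig2, an endoplasmic reticulum protein that holds back the activation of sterol-regulating SREBP factors, read 12.06, 12.20 and 12.20 at 978.5 mg/kg, against 11.38, 11.47 and 11.25 at 489.2 mg/kg. The 489.2 mg/kg arrays lay below all vehicle arrays (11.60 to 12.34), and those at 978.5 mg/kg lay among them. The difference was 0.79 ± 0.15 (SE, n = 3 each, limma adjusted p = 0.0442), and a second probe set gave 0.89. It was the only one of 16 genes of sterol regulation and uptake that passed, and the list's median was -0.07, running from -0.13 to -0.0045 with 1 array left out.

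The sterol export pump made of Abcg5 and Abcg8 showed larger differences that did not pass. Abcg5 read 9.89, 8.79 and 10.19 at 978.5 mg/kg, against 7.75, 8.51 and 8.19 at 489.2 mg/kg (1.47 ± 0.39, limma adjusted p = 0.138), and Abcg8 read 7.78, 6.73 and 8.42 at 978.5 mg/kg, against 6.08, 6.64 and 6.39 at 489.2 mg/kg (1.27 ± 0.38, limma adjusted p = 0.176). In both the second array at 978.5 mg/kg was close to the 489.2 mg/kg arrays. Of 19 cholesterol synthesis genes 17 were positive with a median of 0.24, 0 were called, and 3 were higher at an unadjusted p under 0.05, where 7.17% of all genes were. The median was 0.072 without the first array at 978.5 mg/kg and 0.41 without the second. Without the third array at 489.2 mg/kg 18 were positive, with a median of 0.30. Tm7sf2 and Sc5d, enzymes of late sterol synthesis, gave 0.77 ± 0.20 and 0.63 ± 0.14 (limma adjusted p = 0.135 and 0.0676), though another Sc5d probe set gave 0.01.

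Ttc39a, which encodes a tetratricopeptide repeat protein, read 6.39, 6.51 and 6.67 at 978.5 mg/kg, against 5.61, 5.06 and 4.67 at 489.2 mg/kg and 4.40 to 4.84 in vehicle, a difference of 1.41 ± 0.17 (SE, n = 3 each, 2.65-fold, limma adjusted p = 0.000375). Car2, the carbonic anhydrase that interconverts CO2 and bicarbonate, read 9.14, 9.43 and 9.02 at 978.5 mg/kg, against 8.23, 8.26 and 7.57 at 489.2 mg/kg, a difference of 1.18 ± 0.19 (limma adjusted p = 0.0254), while its second probe set gave 0.61. Acyp2, an acylphosphatase, read 6.88, 7.26 and 7.79 at 978.5 mg/kg, against 6.47, 5.96 and 6.08 at 489.2 mg/kg, a difference of 1.14 ± 0.22 (limma adjusted p = 0.0442). Each of these 3 genes at 978.5 mg/kg was above every vehicle array.

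Rmdn2, a microtubule-associated protein, followed the course of Insig2. It read 10.75, 10.44 and 10.88 at 978.5 mg/kg, against 9.77, 10.01 and 9.47 at 489.2 mg/kg, below the vehicle range of 10.29 to 10.93, a difference of 0.94 ± 0.17 (limma adjusted p = 0.0392). The remaining 7 called genes differed by 0.48 to 0.71: the ubiquitin ligase Herc3, the adaptor Bcar3, the deglycating kinase Fn3krp, the ciliary GTPase Arl6, the kinetochore protein Zwint, Ugt2b10 above, and the ubiquitin ligase scaffold Cul4a. Zwint read 11.04, 10.80 and 10.84 at 978.5 mg/kg, against 10.45, 10.27 and 10.15 at 489.2 mg/kg and 9.67 to 10.01 in vehicle, so that both doses lay above vehicle (0.60 ± 0.10, limma adjusted p = 0.026). Herc3 had a second probe set with a difference of 0.05 against 0.71 for the one used.

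Against vehicle, 13 of the 15 were called at 978.5 mg/kg, where 10.2% of all genes were, and 5 at 489.2 mg/kg, where 2.90% were. These comparisons share the dose arrays that chose the genes and are given as a description. The 5 were Abcb1a, Ugt2b10 and Zwint, with all 489.2 mg/kg arrays above vehicle, and Insig2 and Rmdn2, with all below. For Herc3 all 3 arrays at 489.2 mg/kg lay within the vehicle range, and for the other 9 they were split.

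**Figure D2:**
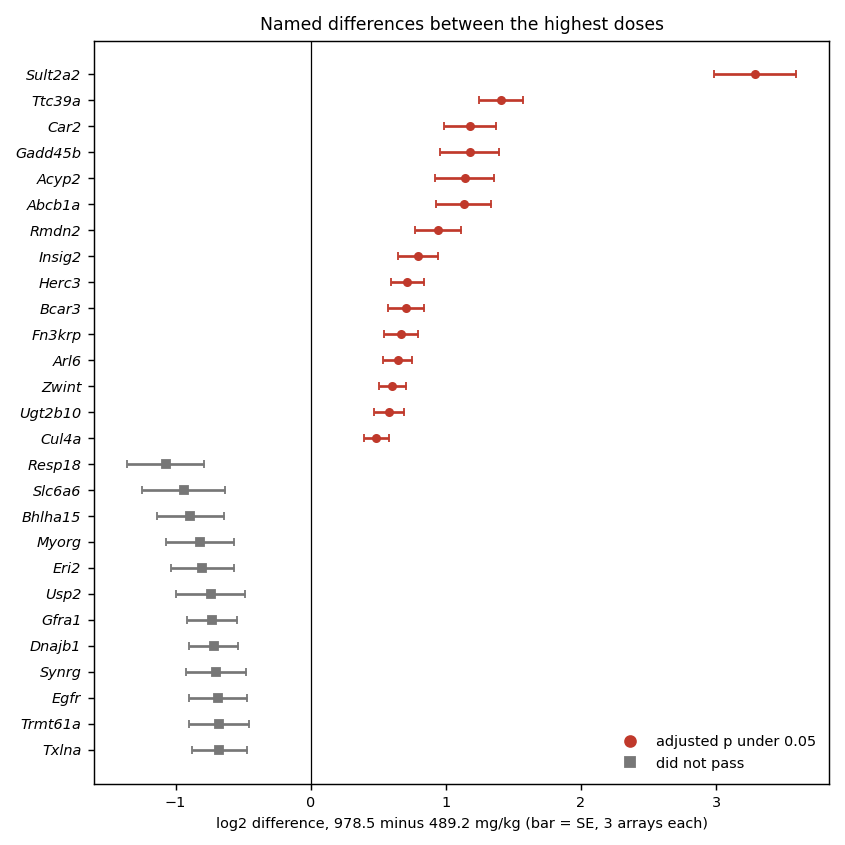
Log2 difference, 978.5 minus 489.2 mg/kg (horizontal axis), with bars of 1 SE, for the 15 called genes (red circles) and the 12 largest non-overlapping downward differences (grey squares), among those at least 1.5-fold with an unadjusted p under 0.01, which did not pass. Upward differences ran from 0.48 to 3.29, and downward ones from -0.68 to -1.07.

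No gene passed downward, and the 12 largest non-overlapping differences in that direction, among genes at least 1.5-fold lower with an unadjusted p under 0.01, had limma adjusted p-values of 0.124 to 0.217. Resp18, an endocrine secretory protein, read 5.33, 5.90 and 5.56 at 978.5 mg/kg, against 6.81, 6.30 and 6.90 at 489.2 mg/kg (-1.07 ± 0.28, limma adjusted p = 0.136). Slc6a6, the taurine carrier, read 6.41, 6.54 and 6.09 at 978.5 mg/kg, against 6.66, 7.53 and 7.68 at 489.2 mg/kg, with 9.77 to 10.48 in vehicle (-0.94 ± 0.31, limma adjusted p = 0.201), and another probe set gave -0.04. Egfr, the epidermal growth factor receptor, read 11.06, 11.19 and 10.80 at 978.5 mg/kg, against 11.28, 11.89 and 11.95 at 489.2 mg/kg (-0.69 ± 0.21, limma adjusted p = 0.184), and another of its 3 probe sets gave -0.08.

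The others were Bhlha15, a transcription factor of secretory cells, the exonuclease Eri2, the deubiquitinase Usp2, the GDNF receptor Gfra1, the co-chaperone Dnajb1, the tRNA methyltransferase Trmt61a, and Myorg, Synrg and Txlna, at -0.68 to -0.89. A second probe set of Eri2 gave -0.06, against -0.80 for the one used. Cyp2c11, the main male-specific cytochrome P450 of rat liver, read 13.64, 13.93 and 13.71 at 978.5 mg/kg, against 14.06, 14.25 and 14.19 at 489.2 mg/kg (-0.41 ± 0.08, limma adjusted p = 0.0521). Over 18 male-biased genes the median was 0.13, with 0 called, and it was 0.013 without replicate 3 at 489.2 mg/kg. At an unadjusted p under 0.05, 4 were higher and 1 lower, against 7.17% and 6.47% of all genes. Of 18 female-biased genes 9 were positive and 9 negative, with a median of 0.03. Sult2a2 was the 1 called, where 0.106% of all genes were. At an unadjusted p under 0.05, 4 female-biased genes were higher and 1 lower. Their median was 0.092 without replicate 3 at 489.2 mg/kg.

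**Figure D3:**
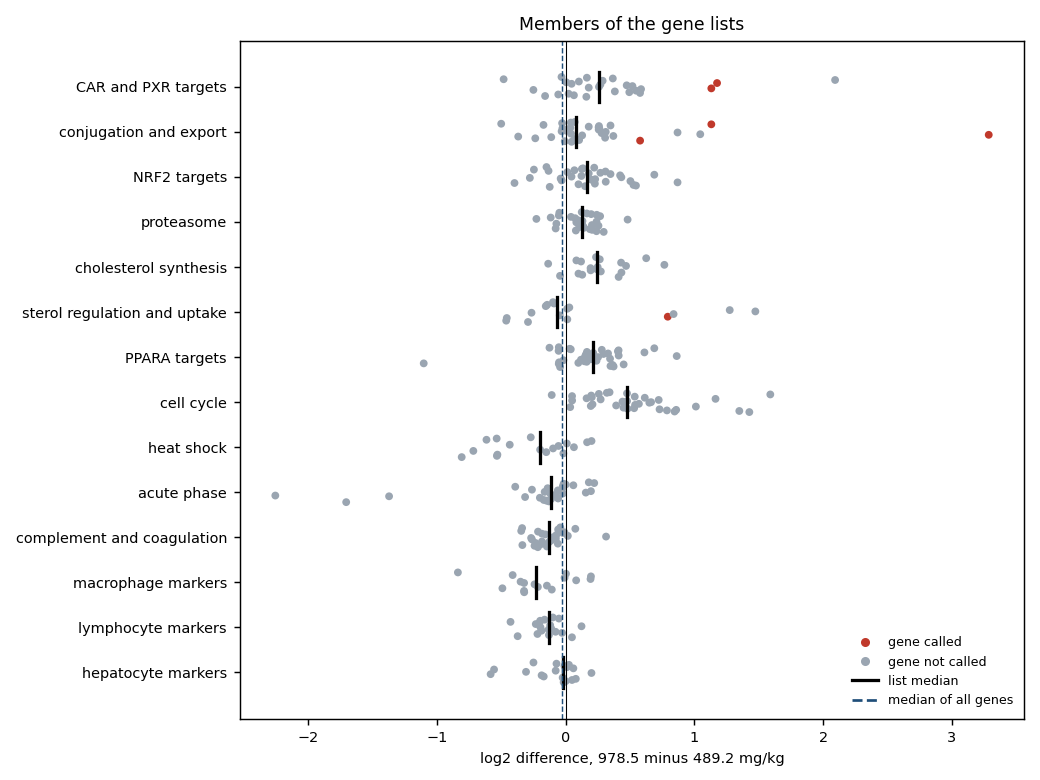
Log2 difference, 978.5 minus 489.2 mg/kg (horizontal axis), of each measured member of 14 gene lists, with the list median as a black bar, called genes in red and the median of all genes as a dashed line. Cell cycle members lay to the right with a median of 0.48 and none called, and heat shock members to the left with a median of -0.20.

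Because 489.2 mg/kg had its own neighbour below, the step to 978.5 mg/kg was compared with the step from 244.6 to 489.2 mg/kg, both about a doubling of the dose. The 2 steps differed in 132 genes (0.928%, limma adjusted p under 0.05), 115 with a positive difference of steps (0.809%) and 17 with a negative one (0.120%). In 114 of the 115 the mean at 489.2 mg/kg lay below those at 244.6 and 978.5 mg/kg, and in all 17 it lay above both. The difference of steps sets the 489.2 mg/kg mean against the means beside it. Genes called by it thus tend to have this shape, and these counts only describe the sets. Among the 15 genes called between the highest doses 9 were in the first set. Both tests contain the step to 978.5 mg/kg, so an overlap was favoured by how the genes were chosen. The 489.2 mg/kg arrays enter both steps and so weigh most in both sets, while those at 244.6 and 978.5 mg/kg weigh equally. Without the first array at 489.2 mg/kg 3 genes were called, and without the second at 244.6 mg/kg 5 were. Without the third at 978.5 mg/kg 7 genes were called, and without the second at that dose 325 were.

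Tbc1d31, a centrosomal protein, read 7.88, 7.75 and 7.76 at 244.6 mg/kg, 6.77, 6.75 and 6.62 at 489.2 mg/kg, and 7.38, 6.96 and 7.73 at 978.5 mg/kg. Mdm1, a centriole protein, read 7.64, 7.75 and 7.26 at 244.6 mg/kg, 5.76, 6.39 and 5.97 at 489.2 mg/kg, and 7.09, 6.45 and 7.15 at 978.5 mg/kg. Their steps differed by 1.73 ± 0.24 and 2.36 ± 0.33 (SE, limma adjusted p = 0.00638 for each). Both were lower at 489.2 mg/kg than at the doses beside it. Their vehicle means of 6.91 and 6.42 lay between the means at 244.6 mg/kg (7.80 and 7.55) and at 489.2 mg/kg (6.71 and 6.04). The dip thus set in from a level above vehicle. Arl6 of the cilium's membrane coat (1.22 ± 0.18), Cc2d2a of the ciliary base (1.54 ± 0.25) and Lin9, a regulator of cell cycle genes (1.499 ± 0.25), followed the same course with limma adjusted p-values of 0.0101, 0.0181 and 0.0181.

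Of 37 cell cycle genes 36 were higher at 978.5 than at 489.2 mg/kg by their means, with a median of 0.48. Yet 0 were called, and 8 were higher at an unadjusted p under 0.05, where 7.17% of all genes were. Dose groups without overlap upward were seen in 0 of them, against 7.62% of all genes. Leaving out the third array at 489.2 mg/kg, 35 were higher and the median was 0.37. The median was 0.30 without the first array at 978.5 mg/kg and 0.75 without the second. The mean level of the list was 8.01, 7.86 and 7.34 on the arrays at 244.6 mg/kg, 6.14, 6.69 and 6.02 at 489.2 mg/kg, and 7.22, 6.27 and 6.98 at 978.5 mg/kg, with 6.10 to 6.82 in vehicle. The second array at 978.5 mg/kg was thus at vehicle level, the other 2 above it, and 23 of the 37 genes were called lower at 489.2 than at 244.6 mg/kg, where 242 of all genes (1.70%) were called, 213 of them lower. Mki67, a marker of dividing cells, read 8.79, 8.30 and 7.47 at 244.6 mg/kg, 4.17, 5.73 and 4.21 at 489.2 mg/kg, and 6.96, 4.83 and 6.61 at 978.5 mg/kg. The steps differed for 3 members, the replication clamp Pcna (1.32 ± 0.31), the ribonucleotide reductase subunit Rrm1 (1.61 ± 0.38) and the spindle checkpoint kinase Bub1 (3.39 ± 0.81), with limma adjusted p-values of 0.0473, 0.0485 and 0.0494.

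**Figure D4:**
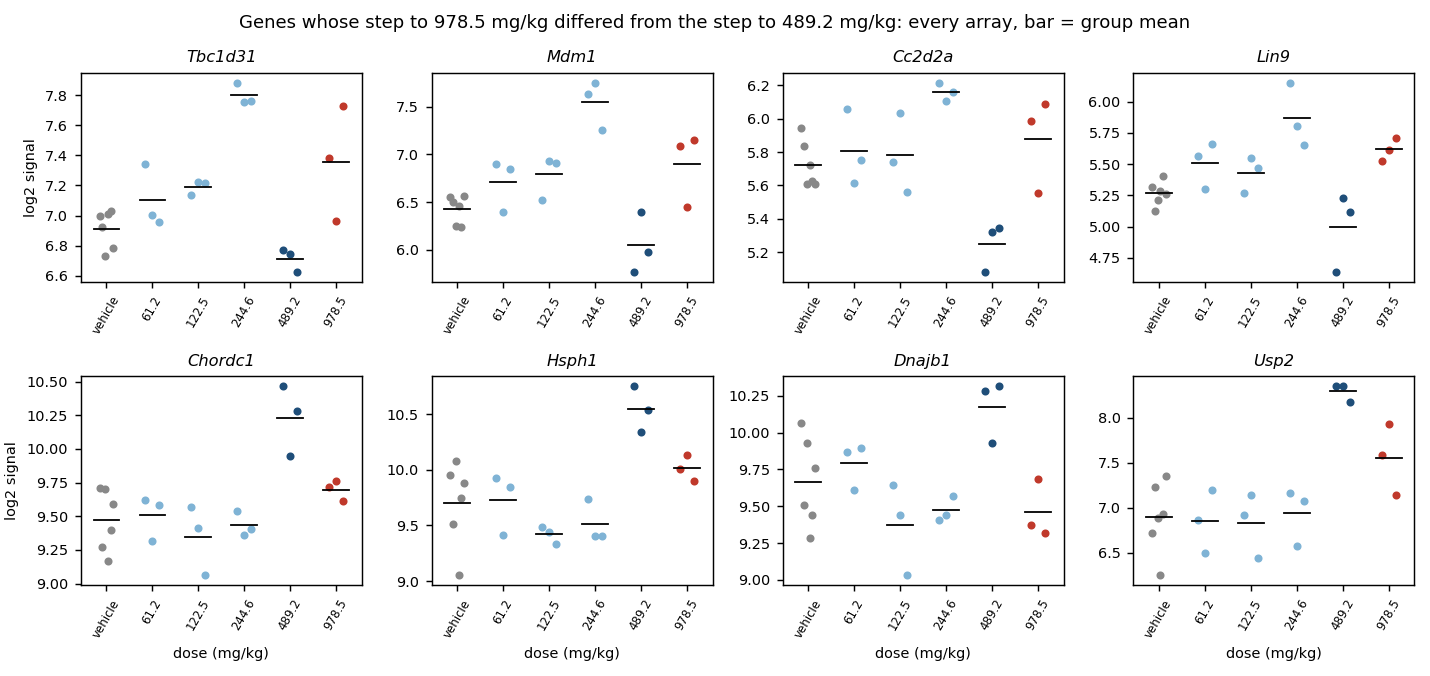
Log2 signal (vertical axis) by dose from vehicle to 978.5 mg/kg for 8 genes whose steps differed, with 1 point per array and a bar at each group mean. Tbc1d31, Mdm1, Cc2d2a and Lin9 dipped at 489.2 mg/kg, and Chordc1, Hsph1, Dnajb1 and Usp2 peaked there.

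Heat shock genes gave the opposite picture. Of 17 measured, 13 were lower at 978.5 than at 489.2 mg/kg by their means (median -0.20), and in 7 all 978.5 mg/kg arrays lay below all 489.2 mg/kg arrays, where 9.24% of all genes did. None passed, and 7 were lower at an unadjusted p under 0.05, where 6.47% of all genes were. Without the third array at 489.2 mg/kg the median was -0.13, and without the second it was -0.31. The mean level of the list was 9.85, 9.78 and 9.61 at 978.5 mg/kg, against 10.13, 9.86 and 10.05 at 489.2 mg/kg.

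Chordc1, a partner of the chaperone Hsp90, read 9.54, 9.36 and 9.41 at 244.6 mg/kg, 10.47, 9.95 and 10.28 at 489.2 mg/kg, and 9.72, 9.76 and 9.61 at 978.5 mg/kg. The steps of Chordc1 (-1.33 ± 0.27), of the Hsp110 chaperone Hsph1 (-1.57 ± 0.34) and of the Hsp40 co-chaperone Dnajb1 (-1.42 ± 0.31) differed, with limma adjusted p-values of 0.0311, 0.0363 and 0.041. Heat shock factor 1 binds inverted repeats of NGAAN. The promoters of 2 of these genes, Chordc1 and Hsph1, are shown because they hold the heat shock element. It was searched as GAA, TTC and GAA with 2 free bases after each of the first 2 units. On either strand it was found in 0.798% of all promoters. The 2 genes were picked for holding it, and its share among heat shock genes was not counted. Both promoters are on the plus strand of GRCr8, at chr8:23650571-23650870 for Chordc1 and chr12:10427118-10427417 for Hsph1, over the same span around the start.
Chordc1: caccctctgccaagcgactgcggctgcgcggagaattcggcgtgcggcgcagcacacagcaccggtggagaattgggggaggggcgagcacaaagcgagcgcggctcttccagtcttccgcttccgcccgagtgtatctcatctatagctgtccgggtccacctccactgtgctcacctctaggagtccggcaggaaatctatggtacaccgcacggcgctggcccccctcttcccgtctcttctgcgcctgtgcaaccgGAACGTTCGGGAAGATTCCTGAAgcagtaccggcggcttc
Hsph1: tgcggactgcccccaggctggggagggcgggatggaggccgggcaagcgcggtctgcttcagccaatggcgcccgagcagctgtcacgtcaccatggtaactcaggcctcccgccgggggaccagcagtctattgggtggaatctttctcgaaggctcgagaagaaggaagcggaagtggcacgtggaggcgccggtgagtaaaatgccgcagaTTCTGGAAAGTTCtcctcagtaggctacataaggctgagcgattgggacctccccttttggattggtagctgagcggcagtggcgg
Capitals mark the element, which Chordc1 holds as 3 overlapping matches just after its start and Hsph1 as 1 match whose first base lies at -36. The remaining genes named for a negative difference of steps were the unconventional myosin Myo1f (-0.93 ± 0.19), the TGF-beta docking protein Lrrc32 (-0.73 ± 0.15), the proline oxidase Prodh (-1.20 ± 0.25) and Usp2 (-2.10 ± 0.44), with limma adjusted p-values of 0.0311, 0.0311, 0.0317 and 0.0325. Usp2 read 7.16, 6.57 and 7.08 at 244.6 mg/kg, 8.35, 8.36 and 8.18 at 489.2 mg/kg, and 7.58, 7.93 and 7.15 at 978.5 mg/kg.

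Of 30 proteasome subunits 24 were higher at 978.5 mg/kg by their means (median 0.13) and 11 did not overlap, against 7.62% of all genes. None was called, and 9 were higher at an unadjusted p under 0.05, against 7.17% of all genes. Psmc6, an ATPase of the regulatory cap, read 10.87, 10.73 and 11.18 at 978.5 mg/kg, against 10.56, 10.35 and 10.41 at 489.2 mg/kg (0.48 ± 0.12, limma adjusted p = 0.122). With replicate 3 at 489.2 mg/kg left out, 24 were positive, and without the first at 978.5 mg/kg the median was 0.085. Of 39 PPARA targets, genes of fatty acid use, 31 were positive (median 0.21) and 0 were called. At an unadjusted p under 0.05, 8 were higher and 1 lower, against 7.17% and 6.47% of all genes. Without replicate 3 at 489.2 mg/kg, however, 25 were positive and the median was 0.05.

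The median acute phase difference was smaller without the third array at 489.2 mg/kg. Of 29 genes 22 were lower at 978.5 mg/kg by their means (median -0.11) and 0 were called. At an unadjusted p under 0.05, 5 were lower, where 6.47% of all genes were. Without that array 23 were lower, with a median of -0.037, and the median was -0.068 without the first array at 978.5 mg/kg and -0.048 without the third. Lbp, the lipopolysaccharide-binding protein, read 10.02, 10.66 and 8.59 at 978.5 mg/kg, against 11.54, 10.38 and 11.45 at 489.2 mg/kg (-1.37 ± 0.42, limma adjusted p = 0.184), high in the first array as well as the third. A2m, alpha-2-macroglobulin, read 8.44, 10.70 and 8.44 at 978.5 mg/kg, against 10.60, 9.28 and 12.82 at 489.2 mg/kg and 9.28 to 12.66 in vehicle.

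**Figure D5:**
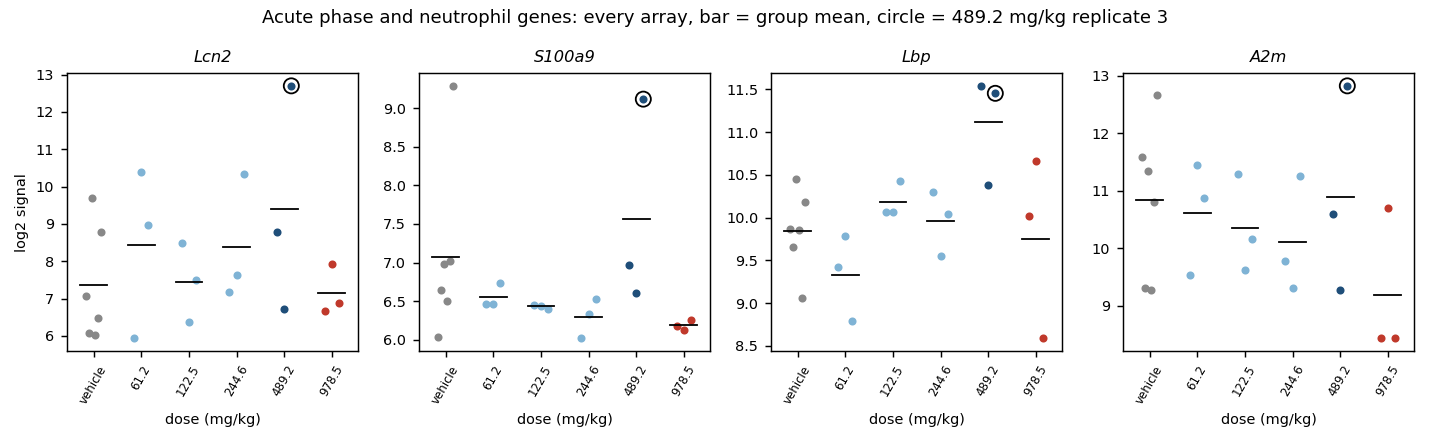
Log2 signal (vertical axis) of Lcn2, S100a9, Lbp and A2m by dose from vehicle to 978.5 mg/kg, with 1 point per array and a bar at each group mean. The circled point is the third array at 489.2 mg/kg, which was highest of its group for Lcn2, S100a9 and A2m and close to the first array for Lbp.

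Markers of other cells were mostly lower at 978.5 mg/kg by their means, with none called, and in whole tissue fewer cells of a type and less RNA per cell cannot be told apart. Macrophage markers were negative in 12 of 16 (median -0.23), with mean levels of 8.97, 9.36 and 9.22 at 978.5 mg/kg, against 8.65, 9.67 and 9.84 at 489.2 mg/kg. Without the third array at 489.2 mg/kg 9 of 16 were negative and the median was -0.0069, without the first it was -0.65 and without the second 0.0035. It was -0.12 and -0.36 without the first and the second at 978.5 mg/kg. Lymphocyte markers were negative in 17 of 20 (median -0.13) and neutrophil markers in 8 of 10 (median -0.10). The mean level of the neutrophil markers was 5.03 on each array at 978.5 mg/kg. It was 5.23, 5.08 and 5.71 at 489.2 mg/kg and 5.11 to 5.73 in vehicle. With replicate 3 at 489.2 mg/kg left out 15 of 20 lymphocyte markers (median -0.087) and 9 of 10 neutrophil markers (median -0.070) were negative, and over all 6 arrays left out in turn the lymphocyte median ran from -0.22 to -0.062. The part of these cells in the acute phase values was not tested. Hepatocyte markers had a median of -0.02 (-0.040 without replicate 3 at 489.2 mg/kg), and their mean level was 13.10, 13.05 and 12.95 at 978.5 mg/kg, against 13.17, 13.09 and 13.15 at 489.2 mg/kg.

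Clock genes showed no common direction, with 12 of 21 positive and 0 called. At an unadjusted p under 0.05, 2 were higher and 2 lower, against 7.17% and 6.47% of all genes. Dbp, a clock output factor, read 8.62, 9.23 and 8.11 at 978.5 mg/kg, against 6.79, 9.34 and 9.24 at 489.2 mg/kg (0.20 ± 0.52, limma adjusted p = 0.899). The first array at 489.2 mg/kg was the low one, and all 6 stood above the vehicle arrays.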

How the data were processed

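Liver RNA was measured on 21 Affymetrix rat arrays in 6 groups taken from the sample titles. The deposited values are log2 signals, which the authors made by robust multi-array averaging (RMA), per the submitters' processing notes, with no version given there, so replicates were not pooled and depth does not apply. The number of arrays, 3 per dose, limits the precision of each estimate, and the protocol's 3 rats per dose are taken as the replicates.

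Of 31099 probe sets, 20832 were paired with 1 gene, 436 with several and 9831 with none by the platform annotation. Each of 14218 genes was represented by the probe set of highest mean signal, and 4526 genes had 2 or more. The test was limma's moderated one (limma 3.58.1, R 4.3.3), with 1 mean per group on the 21 arrays and Benjamini-Hochberg adjusted p-values over the genes, at a threshold of 0.05. A second contrast took the step to 978.5 mg/kg minus the step to 489.2 mg/kg. Tables and plots were made with Python 3.11.15, pandas 2.3.3 and matplotlib 3.10.9.

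Genes were named by a rule. It took all called genes, each direction being filled up to 12 with the largest non-overlapping differences at an unadjusted p under 0.01 and at least 1.5-fold, and then up to 3 members of each list, a set of known genes and the 5 genes of smallest p per direction of the second contrast. Some were left out for length. Sult2a1, Hsph1, Pcna, Rrm1 and Bub1 were named after their values were seen. The 44 gene lists matched 1037 of 1191 entries. The members compared and the lists were chosen with earlier results of these data known, and lists are described by counts and medians without a test. The inverted repeat, the heat shock element and the cell cycle homology region searched in promoters were chosen after values were seen.

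Alternatives covered the probe set per gene, low values, eBayes options, array weights, centring, normalisation, thresholds, a replicate block, only the arrays compared, and each array left out. Tested on simulated data with 100 genes of 14218 changed at each size, the comparison of 978.5 with 489.2 mg/kg recovered 81% at 1.5-fold and 98% at 2-fold with 12 false calls, and the difference of steps recovered 21% and 73% with 9. The simulated noise was drawn independently for each gene, without shifts shared by the genes of an array. The recovery in the real data may therefore differ.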

Additional observations from a re-analysis of the deposited data

Results flagged for a closer look

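Among 37 genes whose vehicle arrays were checked for a lone extreme value, 2 had one, and chance alone flags about 1 group in 20. The sixth vehicle array read 6.74 for Gadd45b, above the other 5, and the second read 10.67 for Prodh.

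In 25 named genes the step to 978.5 mg/kg differed from the step to 489.2 mg/kg by a test of that difference (limma adjusted p under 0.05). Over all genes 0.928% passed that test. Some of the 25 were named for their small p in it or after their values were seen. Those called between the doses were chosen on 1 of the 2 steps, so the number 25 is not a result. The differences of steps among genes called between the doses were 3.01 for Sult2a2, 1.47 for Ttc39a, 1.88 for Car2, 1.49 for Rmdn2, 1.24 for Insig2, 0.95 for Herc3, 1.13 for Fn3krp, 1.22 for Arl6 and 0.78 for Zwint. Among the other named genes they were 1.73 for Tbc1d31, 2.36 for Mdm1, 1.54 for Cc2d2a, 1.499 for Lin9, -1.33 for Chordc1, -0.93 for Myo1f, -0.73 for Lrrc32, -1.20 for Prodh, -2.10 for Usp2, -1.83 for Eri2, -1.44 for Gfra1, -1.42 for Dnajb1, -1.57 for Hsph1, 1.32 for Pcna, 1.61 for Rrm1 and 3.39 for Bub1. A positive value means that the signed change from 489.2 to 978.5 mg/kg was above that from 244.6 to 489.2 mg/kg, whatever the size of either.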

How the results depend on the processing

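The 15 calls between 978.5 and 489.2 mg/kg became 0 with only the arrays compared (1471 genes at an unadjusted p under 0.05), 42 with probe sets averaged per gene, 26 among genes above the median level, 27 with eBayes trend and robust options, 6 with array weights, 92 at an unadjusted p under 0.005 with 1.5-fold and 77 at an adjusted p under 0.10. Leaving out 1 array gave 2 to 126. A further quantile normalisation gave 88.9% higher among its calls, against 100% as reported. The 132 genes whose steps differed became 0 with only the 9 arrays of the 3 doses (1971 at an unadjusted p under 0.05), 85 with every probe set tested, 28 above the median level, 72 with array weights, 86 with median centring, 431 at an unadjusted p under 0.005 with 1.5-fold and 304 at an adjusted p under 0.10. Leaving out 1 array gave 3 to 325. Fewer arrays or genes entered several of these fits, and beyond that the cause was not tested. The median of conjugation and export genes ran from 0.079 to 0.22 when 1 array was left out, highest without the third at 978.5 mg/kg.

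The replicate block gave 22 calls between the doses, 12 of them shared with the 15, and 108 for the difference of steps. Same-numbered arrays deviated together with correlations of 0.123, -0.028 and 0.094, and not every array correlated best with its own number, so the numbers were not taken as pairs.

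Differences that changed sign were those of Abcc3 (-0.085 to 0.50 with 1 array left out, negative without the second array at 978.5 mg/kg and, at -0.037, without the third at 489.2 mg/kg), Cyp1a1 (-0.17 to 0.93, negative without the second at 489.2 mg/kg) and Dbp (-0.64 to 0.64, negative without the first at 489.2 mg/kg and, at -0.092, without the second at 978.5 mg/kg), none of which had passed. The other 1434 alternative values of named genes between the doses kept their sign, 83 of them losing and 33 gaining a call. Precision is limited by 3 arrays per dose and, for Sult2a2, by a signal near the lowest on the array at 489.2 mg/kg.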

Other observations

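Complement and coagulation genes, made mainly by hepatocytes, were lower at 978.5 than at 489.2 mg/kg by their means in 26 of 29 (median -0.13), with 0 called by limma, 6 lower at an unadjusted p under 0.05 (6.47% of all genes) and 5 with all 978.5 mg/kg arrays below (9.24% of all genes). Leaving out the third array at 489.2 mg/kg, 22 were lower, with a median of -0.043, and leaving out the first the median was -0.20. Klkb1, prekallikrein, read 12.57, 12.75 and 12.72 at 978.5 mg/kg, against 12.99, 12.83 and 13.23 at 489.2 mg/kg (-0.34 ± 0.12, limma adjusted p = 0.216). Interferon and antigen presentation genes were higher in 29 of 39 (median 0.15) with 0 called and 3 higher at an unadjusted p under 0.05, against 7.17% of all genes. Without the third array at 489.2 mg/kg 27 were higher, with a median of 0.10. Ifit2, an interferon-induced protein, read 9.66, 10.05 and 10.11 at 978.5 mg/kg, against 9.07, 9.56 and 8.93 at 489.2 mg/kg (0.76 ± 0.23, limma adjusted p = 0.176).

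Sinusoidal uptake carriers that did not pass were Slco1b2 (0.49 ± 0.13, limma adjusted p = 0.138) and Slco1a4 (0.52 ± 0.15, limma adjusted p = 0.176). The serine synthesis gene Psat1 read 10.66, 10.36 and 10.43 at 978.5 mg/kg, against 9.98, 10.28 and 8.35 at 489.2 mg/kg, where 8.35 is the third array (0.95 ± 0.34, limma adjusted p = 0.233, and 0.36 without that array). Gnmt, a methyltransferase that uses up S-adenosylmethionine, read 11.57, 12.34 and 11.79 at 978.5 mg/kg, against 12.75, 12.34 and 12.51 at 489.2 mg/kg, with 12.99 to 13.21 in vehicle (-0.63 ± 0.16, limma adjusted p = 0.127).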
